A study of Mus musculus with 15 samples.

Results

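The genes described here are 34 enzymes and regulators of sterol and fatty acid synthesis in mouse fibroblasts, picked out by gene symbol. Of the 34 genes, 31 were found on the array by their symbol, 2 (Acss2 and Me1) by an accession and 1 (Srebf2) by an older symbol. The probe with the highest mean Cy5 intensity stood for each gene. All 34 were among the 31325 genes tested, and none was saturated on any array.

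Fibroblast RNA of 5 sources was measured on 15 2-colour arrays, 3 per source. The labels name 3 sources resistant (TAF-el4, TAF-tib42 and TAF-tib48) and 2 sensitive (TAF-tib6 and NSF), and the title of the series speaks of fibroblasts from tumours that do not respond to treatment against VEGF. TAF is read here as tumour-associated fibroblast. The labels give no strain, age, tumour type or culture conditions, and the name NSF is not spelled out in them. Nothing in the labels ties the 3 replicates to separate cultures or animals. The p-values between sources therefore reflect array-to-array spread alone, possibly technical. Every array carried fibroblast RNA in the Cy5 channel and 1 commercial mouse reference RNA in the Cy3 channel, so a level is the log2 ratio of fibroblast to reference RNA. In such bulk RNA, fewer cells of a kind and less RNA per cell cannot be told apart.

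Cells build cholesterol from acetyl-CoA through mevalonate, isoprenoid diphosphates, squalene and lanosterol, and they build fatty acids from the same acetyl-CoA with NADPH. The transcription factors SREBP-1 and SREBP-2, encoded by Srebf1 and Srebf2, switch on the genes of both pathways. The escort protein Scap carries them out of the endoplasmic reticulum when sterols are low, and Insig1 and Insig2 hold them back when sterols are plentiful. Fibroblasts have long served as a model for this feedback.

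The arrays had median Cy5 intensities of 174.7 to 285.9 before background correction, above a median local background of 52 to 56. Precision is limited by having 3 arrays per source. Across genes, log2 ratios correlated at 0.960 to 0.987 within a source and at 0.839 to 0.948 between sources. Replicate arrays had a median SD of 0.05 (log2), both for the 34 genes and for all genes. By their barcodes the slides fell into 3 runs of consecutive slides, which the labels do not describe as a batch. Run 1 held all NSF arrays and TAF-el4 replicates 1 and 2. Run 2 held TAF-el4 replicate 3, all TAF-tib42 arrays and TAF-tib48 replicate 1, and run 3 held TAF-tib48 replicates 2 and 3 and all TAF-tib6 arrays. With the slide run as a block, 63 of 175 calls in pairs of sources were lost. Only TAF-el4 links runs 1 and 2, and only TAF-tib48 links runs 2 and 3, each with 1 array in run 2. Under the block, pairs without a shared run are compared through these links. A call lost there can therefore reflect a less precise estimate as well as a smaller difference. Of the markers of fibroblasts, all 13 measured were well above background on every array, and the probe of Col1a1, a chain of type I collagen, was saturated on all 15. That flag was also met by 89.7% to 95.8% of all spots per array and by all 9 macrophage and 11 lymphocyte markers measured. It therefore does not tell cell types apart.

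Most genes of the set differed among the 5 sources, by less than 2-fold each. By limma's moderated F test, 29 of 34 were called at an adjusted p under 0.05, against 43% of all genes tested. The 5 that were not called were Lss, Cyp51, Ebp, Acat2 and Acaca. The range of the source means was largest for Dhcr7, at 0.98 on the log2 scale or 1.97-fold, and its median over the 34 genes was 0.46. NSF had the highest mean of the 5 sources for 17 of the 34 genes, and TAF-tib48 had the lowest for 16. Among the 17 genes of the mevalonate pathway and of the steps to cholesterol, NSF was highest for 12 and TAF-tib48 lowest for 11.

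**Figure D1:**
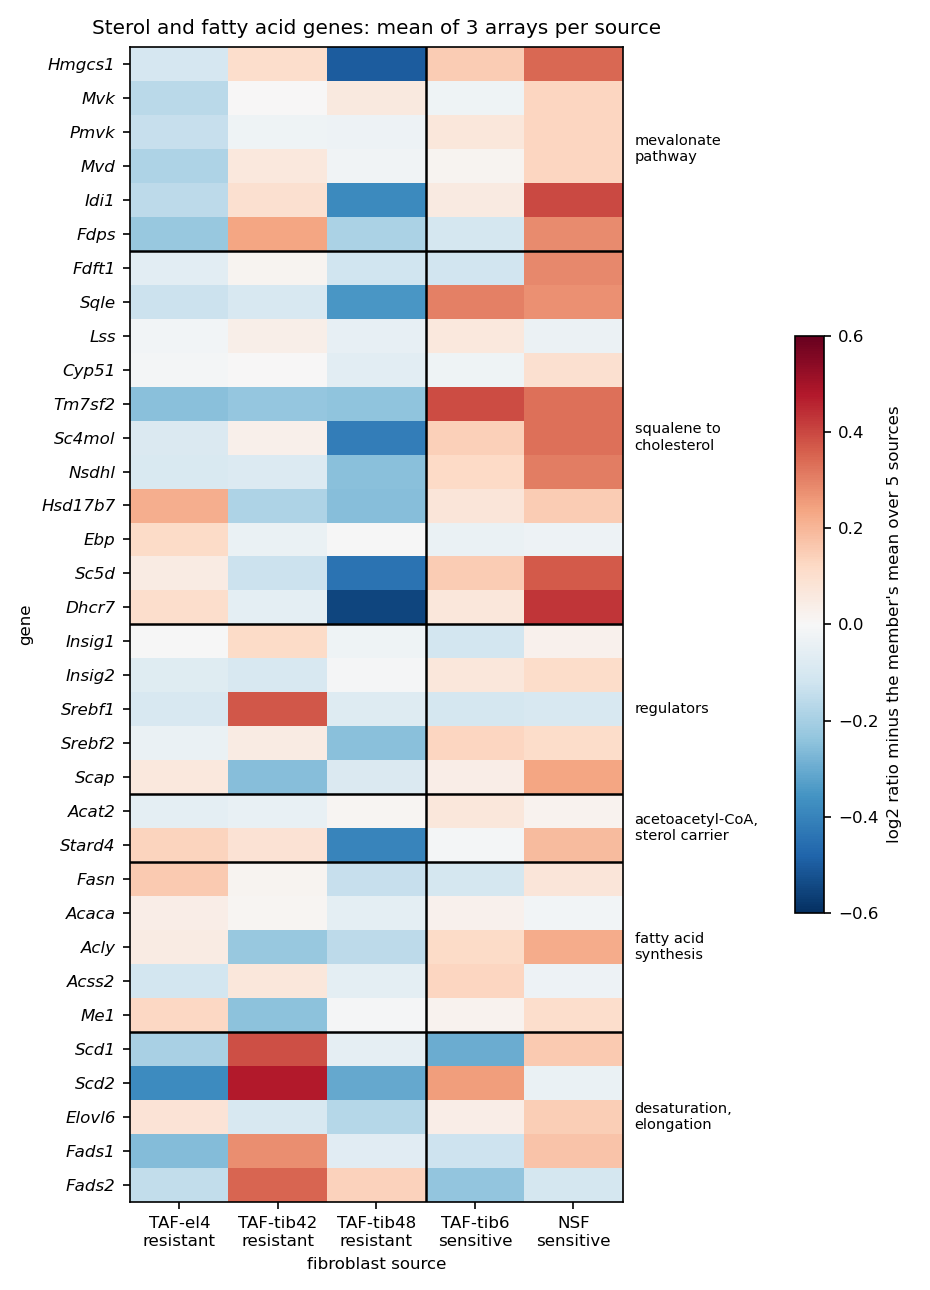
Mean log2 Cy5/Cy3 ratio of each gene in each source, as the difference from the mean of that gene over the 5 sources (colour scale, log2), with genes grouped by role and the 3 resistant sources left of the 2 sensitive ones. Most sterol genes are red in the NSF column and many are blue in the TAF-tib48 column, while 4 desaturase genes and Srebf1 are red in the TAF-tib42 column.

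Resistant and sensitive sources were compared to see which levels follow the response label. None of the 34 genes was called by limma on the 5 source means, where 0.00319% of all genes were called (1 gene), and 9.21% of all genes had an unadjusted p under 0.05. The unadjusted p was under 0.05 for 8 of the 34 genes (23.5%), namely Tm7sf2, Sqle, Nsdhl, Insig2, Pmvk, Acly, Sc5d and Sc4mol. All 3 resistant means lay below both sensitive means for 11 of the 34 genes, or 32.4%, against 13% of all genes. Those were Tm7sf2, Sqle, Sc5d, Hmgcs1, Sc4mol, Nsdhl, Acly, Srebf2, Pmvk, Insig2 and Acat2. For 0 of the 34 genes did all resistant means lie above both sensitive means, against 13.6% of all genes. The median difference was -0.15 on the log2 scale over the 34 genes and 0.00 over all genes, and 6 of the 34 differences were above 0.

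**Figure D2:**
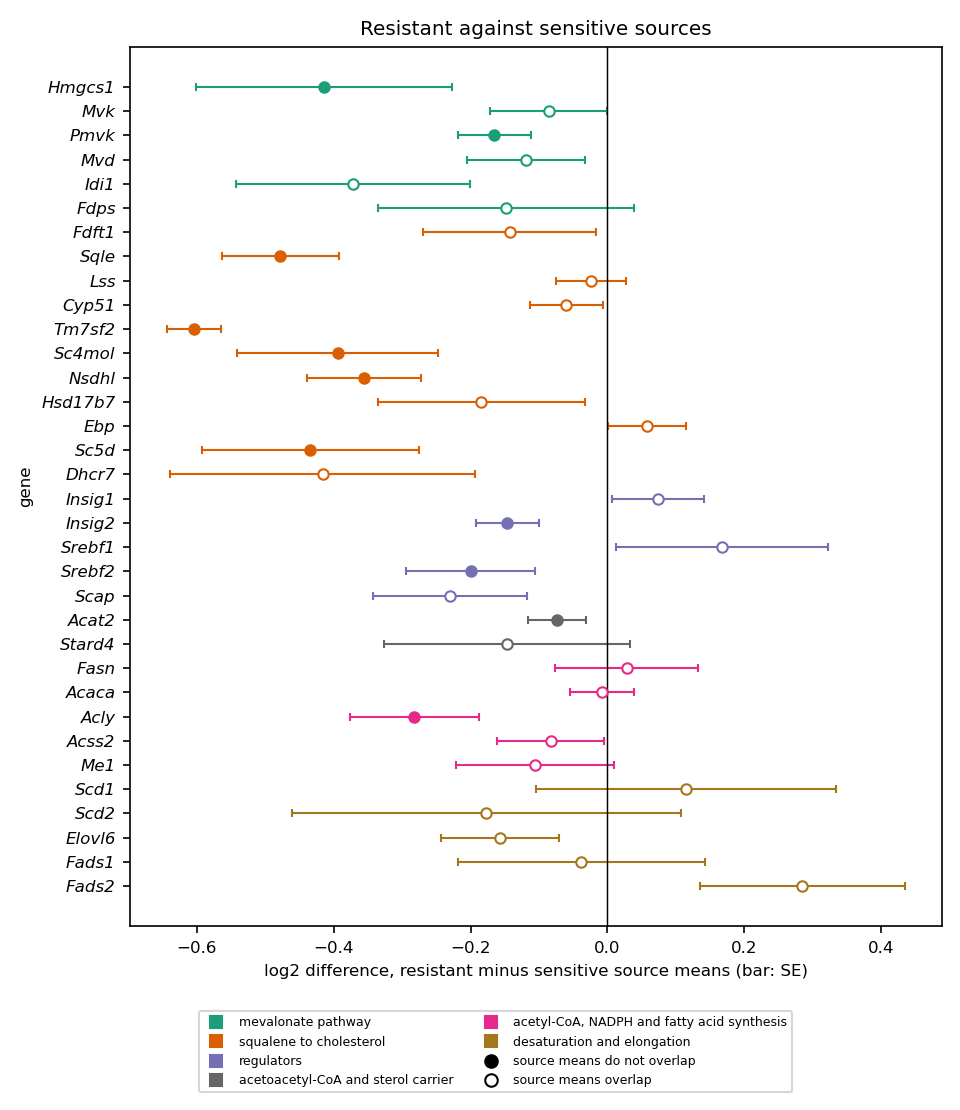
Log2 difference between the means of the 3 resistant and the 2 sensitive sources for each gene, with the SE as a bar and the role as colour. Filled points are genes whose 3 resistant source means all lie on 1 side of both sensitive means. The 11 filled points are all left of 0, with Tm7sf2 farthest at -0.60.

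In pairs of sources, the genes called were mostly lower against NSF. In TAF-el4 against NSF, 20 of 34 genes were called and all 20 were lower, against 17.3% of all genes, 8.79% higher and 8.54% lower. In TAF-tib42 against NSF, 20 were called, 4 higher and 16 lower, against 23.9% of all genes, 10.8% higher and 13.2% lower. In TAF-tib48 against NSF, 23 were called, 1 higher and 22 lower, against 26.1% of all genes, 11.7% higher and 14.4% lower. These 3 comparisons share the NSF arrays. Blocking on the slide run, the counts were 20 for TAF-el4, 13 for TAF-tib42 and 15 for TAF-tib48. Neither TAF-tib42 nor TAF-tib48 has a slide run in common with NSF.

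Against TAF-tib6, 12 genes were called in TAF-el4, 1 higher and 11 lower, against 20.6% of all genes, 11.4% higher and 9.19% lower. In TAF-tib42 against TAF-tib6, 17 were called, 7 higher and 10 lower, against 24.9% of all genes, 11.8% higher and 13.1% lower. In TAF-tib48 against TAF-tib6, 17 were called, 2 higher and 15 lower, against 24.6% of all genes, 11.5% higher and 13.2% lower. These comparisons share the TAF-tib6 arrays. Blocking on the slide run, they were 2 for TAF-el4, 9 for TAF-tib42 and 17 for TAF-tib48. Neither TAF-el4 nor TAF-tib42 has a slide run in common with TAF-tib6. Within run 3, which held 2 TAF-tib48 and 3 TAF-tib6 arrays, 15 of the 17 genes were called in the same direction.

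The sensitive sources also differed from each other. In TAF-tib6 against NSF, 13 genes were called, 1 higher and 12 lower, against 11.3% of all genes, 4.63% higher and 6.68% lower. Scd1, Fdft1, Fdps, Dhcr7 and Idi1 fell most, with log2 differences of -0.46, -0.40, -0.39, -0.36 and -0.34. These sources have no slide run in common, and with the slide run as a block 0 of the 34 genes and 414 of all genes were called by limma. Among the resistant sources, most genes called in a comparison with TAF-tib48 were lower in TAF-tib48. The comparison of TAF-el4 with TAF-tib42 called 18 of the 34, with 7 higher and 11 lower, against 23.1% of all genes, 13.4% higher and 9.69% lower. In TAF-el4 against TAF-tib48, 18 were called, 14 higher and 4 lower, against 23.8% of all genes, 14.1% higher and 9.68% lower. In TAF-tib42 against TAF-tib48, 17 were called, 15 higher and 2 lower, against 14.3% of all genes, 6.63% higher and 7.65% lower. The counts under the slide block were 13, 12 and 13. Within run 2, which held 1 TAF-el4, 3 TAF-tib42 and 1 TAF-tib48 array, they were 11, 9 and 12. In those run 2 comparisons the TAF-el4 and TAF-tib48 arms are 1 array each, assumed to vary like the 3 TAF-tib42 arrays, which alone give the spread.

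**Figure D3:**
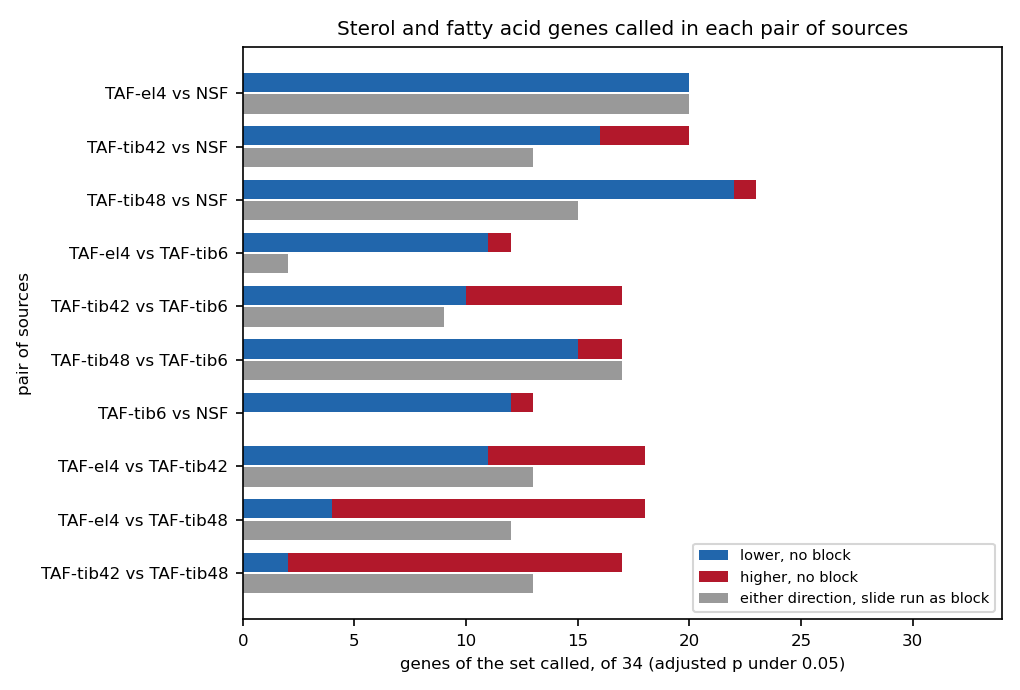
Number of the 34 genes called at an adjusted p under 0.05 in each pair of sources, as higher (red) or lower (blue) in the source named first, and in either direction with the slide run as a block (grey). The grey bar is as long as the coloured one for TAF-el4 against NSF (20) and TAF-tib48 against TAF-tib6 (17), and there is none for TAF-tib6 against NSF.

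The mevalonate pathway was represented by 6 genes. All 6 fell in TAF-el4 against NSF, 3 fell in TAF-tib42 against NSF and 4 in TAF-tib48 against NSF. Under the slide block these counts were 6, 1 and 3. Without the block, 8.54%, 13.2% and 14.4% of all genes were called lower in these pairs. Hmgcs1 is the HMG-CoA synthase of an early step of the pathway. Its log2 ratio was -0.22, -0.22 and -0.22 on the TAF-el4 arrays, -0.07, 0.02 and 0.00 on the TAF-tib42 arrays, and -0.69, -0.64 and -0.54 on the TAF-tib48 arrays, against 0.03, 0.03 and 0.04 on the TAF-tib6 arrays and 0.21, 0.26 and 0.20 on the NSF arrays. Every TAF-tib48 array lay below every array of the other sources, and every resistant array lay below every sensitive one. Hmgcs1 fell by 0.85 in TAF-tib48 against NSF (SE 0.0421, adjusted p = 3.46e-11) and by 0.65 against TAF-tib6 (SE 0.0421, adjusted p = 1.73e-09). It fell by 0.44 in TAF-el4 against NSF and by 0.25 against TAF-tib6, and by 0.24 in TAF-tib42 against NSF. The last pair of calls was lost with the slide run as a block, at adjusted p = 0.38 and 0.0663. The second and dimmer probe of Hmgcs1 had source means between -0.11 and 0.02.

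Idi1, which interconverts the isoprenoid diphosphates, had log2 ratios of -0.88, -0.86 and -0.80 in TAF-el4, -0.63, -0.59 and -0.54 in TAF-tib42, and -1.07, -1.01 and -1.13 in TAF-tib48. It had -0.68, -0.56 and -0.66 in TAF-tib6 and -0.27, -0.30 and -0.31 in NSF. The TAF-tib48 and TAF-el4 arrays lay below all sensitive arrays, while the TAF-tib42 and TAF-tib6 arrays overlapped. Idi1 fell by 0.78 in TAF-tib48 against NSF (SE 0.0453, adjusted p = 2.87e-10) and by 0.44 against TAF-tib6. Its second probe, dimmer, ranged between -0.03 and 0.14 over the source means. The files place both Idi1 probes on chromosome 2, whereas RefSeq places the gene on chromosome 13.

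Fdps makes farnesyl diphosphate, the branch point toward sterols. It had log2 ratios of -0.47, -0.48 and -0.52 in TAF-el4, -0.07, -0.08 and 0.09 in TAF-tib42 and -0.43, -0.42 and -0.49 in TAF-tib48, against -0.37, -0.34 and -0.38 in TAF-tib6 and 0.04, 0.06 and -0.03 in NSF. TAF-tib42 overlapped with NSF, and the other 3 sources lay below both. The fall was 0.51 in TAF-el4 and 0.47 in TAF-tib48 against NSF (SE 0.0469 each, adjusted p = 2.71e-07 and 4.19e-07), while Fdps rose by 0.34 in TAF-tib42 against TAF-tib6 (adjusted p = 2.07e-05). All 3 calls held with the slide run as a block. Mvk, Pmvk and Mvd, the kinases and the decarboxylase between mevalonate and the isoprenoids, moved less, with source means spanning 0.29, 0.27 and 0.31. Each was lowest in TAF-el4, where it fell by 0.29, 0.27 and 0.31 against NSF. The second Mvk probe, almost as bright, did not show this, with -0.095 in TAF-el4 and -0.089 in NSF. Its lowest source mean was -0.13 in TAF-tib6. Pmvk also fell by 0.16 in both TAF-tib42 and TAF-tib48 against NSF and by 0.21 in TAF-el4 against TAF-tib6, and the slide block ended these 3 calls (adjusted p = 0.155, 0.145 and 0.777).

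Among the 11 genes between squalene and cholesterol was Dhcr7, with the widest range of source means, ahead of Scd2 and Hmgcs1 of the other groups at 0.86 and 0.84. In TAF-el4, TAF-tib42 and TAF-tib48 against NSF, 7, 8 and 9 of them fell, and in the same sources against TAF-tib6, 4, 5 and 7 fell. Under the slide block these counts were 7, 6 and 8 against NSF and 1, 3 and 7 against TAF-tib6. None of the 11 rose in these 6 comparisons. Without the block, 8.54%, 13.2% and 14.4% of all genes were called lower against NSF, and 9.19%, 13.1% and 13.2% against TAF-tib6. The median difference of the 11 genes between resistant and sensitive sources was -0.36. Tm7sf2, a sterol reductase that acts after lanosterol demethylation, separated the resistant from the sensitive sources most evenly. Its log2 ratio was -0.68, -0.70 and -0.75 in TAF-el4, -0.73, -0.73 and -0.62 in TAF-tib42 and -0.68, -0.80 and -0.62 in TAF-tib48, against -0.03, -0.03 and -0.13 in TAF-tib6 and -0.12, -0.08 and -0.18 in NSF. The 9 resistant arrays lay together below the 6 sensitive arrays, with no overlap. The difference of the source means was -0.60 (SE 0.0394, unadjusted p = 1.69e-05, adjusted p = 0.214 by limma), or 1.52-fold lower in the resistant sources. In the 6 pairs of a resistant and a sensitive source, Tm7sf2 fell by 0.57 to 0.64, and it fell by 0.50 to 0.71 in the same pairs with the slide run as a block, called in all 6 both times. A single probe measured Tm7sf2, with a Cy5 intensity of 164 to 524.

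Sqle, the squalene epoxidase, likewise lay lower on every resistant array. Its log2 ratio was -0.43, -0.43 and -0.39 in TAF-el4, -0.36, -0.34 and -0.45 in TAF-tib42 and -0.70, -0.61 and -0.58 in TAF-tib48, against -0.01, 0.07 and -0.02 in TAF-tib6 and -0.03, -0.02 and 0.01 in NSF. The sensitive sources overlapped with each other, and TAF-tib48 lay below all others. Sqle fell in all 6 pairs of a resistant and a sensitive source, and in 5 of the 6 with the slide run as a block, where TAF-el4 against TAF-tib6 gave -0.30 (adjusted p = 0.0612). The difference of resistant and sensitive source means was -0.48 (SE 0.0852, adjusted p = 0.272). Nsdhl, a sterol dehydrogenase of the demethylation steps after lanosterol, had -0.49, -0.39 and -0.43 in TAF-el4, -0.38, -0.46 and -0.45 in TAF-tib42 and -0.65, -0.47 and -0.68 in TAF-tib48. It had -0.27, -0.16 and -0.24 in TAF-tib6 and -0.01, -0.05 and -0.06 in NSF. Every resistant array lay below every sensitive one, and Nsdhl fell in all 6 pairs, 4 of which held with the slide run as a block. Its other 2 probes had their highest source mean in NSF too. On the dimmest probe, however, TAF-tib42 at -0.29 was not below TAF-tib6 at -0.31. Averaging the probes of Nsdhl ended its call in TAF-tib42 against TAF-tib6.

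**Figure D4:**
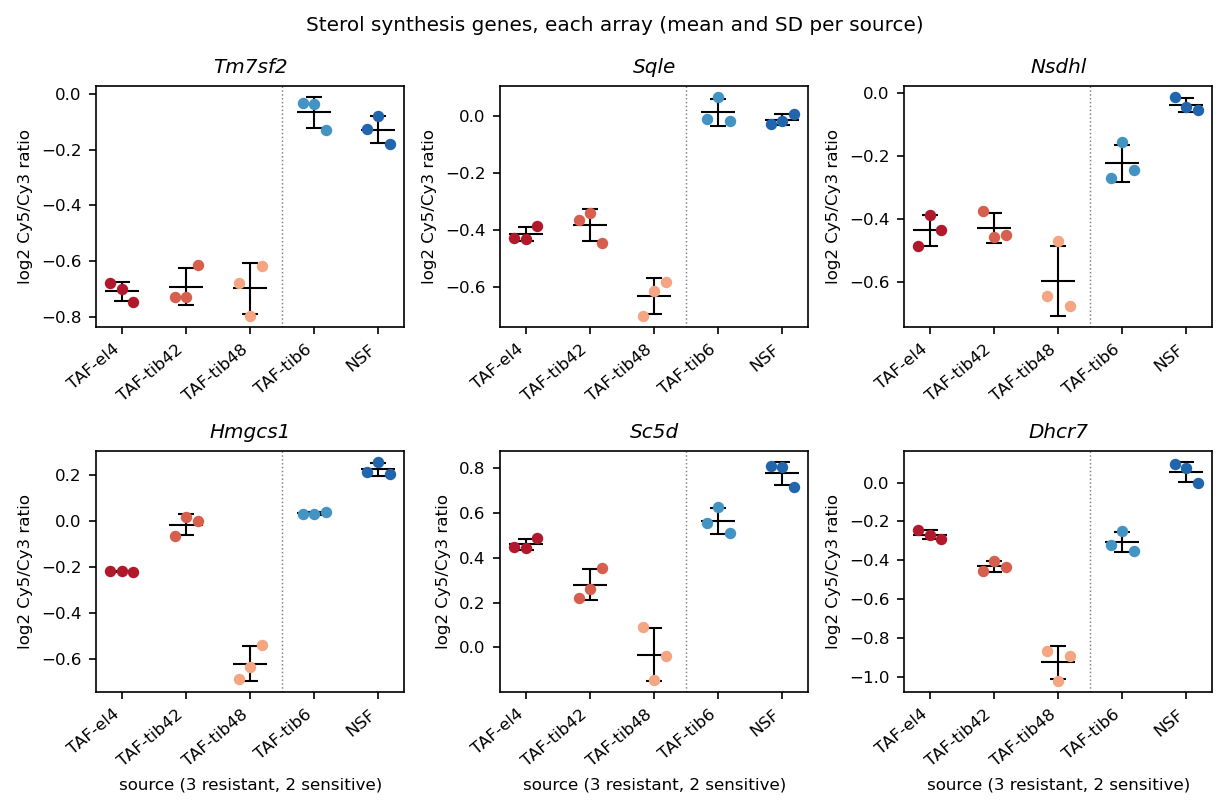
Log2 Cy5/Cy3 ratio of 6 sterol synthesis genes on each array (points), with the mean and SD of each source (bars, n = 3 arrays) and a dotted line between the 3 resistant and the 2 sensitive sources. Tm7sf2 lies near -0.70 in all 3 resistant sources, whereas Hmgcs1, Sc5d and Dhcr7 are lowest in TAF-tib48 and highest in NSF.

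Sc4mol, also called Msmo1, is the methyl sterol oxidase of the same demethylation steps. Its source means were -0.91 in TAF-el4, -0.78 in TAF-tib42 and -1.23 in TAF-tib48, against -0.68 in TAF-tib6 and -0.48 in NSF, and it fell by 0.75 in TAF-tib48 against NSF (SE 0.0701, adjusted p = 1.9e-07). Sc5d, a sterol desaturase near the end of the pathway, had 0.45, 0.44 and 0.49 in TAF-el4, 0.22, 0.26 and 0.36 in TAF-tib42 and 0.09, -0.15 and -0.04 in TAF-tib48, against 0.55, 0.63 and 0.51 in TAF-tib6 and 0.81, 0.80 and 0.72 in NSF. The 5 sources stood in the order TAF-tib48, TAF-tib42, TAF-el4, TAF-tib6 and NSF with no overlap between arrays. Of the neighbours in that order, TAF-el4 and TAF-tib6 was the 1 pair without a call, and the other 3 pairs lost theirs with the slide run as a block. Sc5d fell by 0.81 in TAF-tib48 against NSF (SE 0.0552, adjusted p = 2.56e-09) and by 0.60 against TAF-tib6, and all its 5 calls in pairs of a resistant and a sensitive source held with the slide run as a block.

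Dhcr7 makes cholesterol in the last step of the pathway. Log2 ratios were -0.25, -0.27 and -0.29 in TAF-el4, -0.46, -0.40 and -0.43 in TAF-tib42 and -0.86, -1.02 and -0.89 in TAF-tib48, against -0.32, -0.25 and -0.35 in TAF-tib6 and 0.10, 0.07 and -0.00 in NSF. NSF lay above and TAF-tib48 below all other sources, while TAF-el4 overlapped with TAF-tib6. Dhcr7 fell by 0.98 in TAF-tib48 against NSF (SE 0.0465, adjusted p = 1.73e-11), the largest difference of the 34 genes in any pair, and by 0.89 with the slide run as a block. The second probe of Dhcr7, dimmer, had source means of 0.07, 0.04 and 0.01 in TAF-el4, TAF-tib42 and TAF-tib48, against -0.00 in TAF-tib6 and 0.19 in NSF. Over the 5 source means Sc5d and Dhcr7 correlated at r = 0.975 and Hmgcs1 and Sc4mol at r = 0.992 (n = 5), as a description over sources that share a reference RNA. These were the highest values of all pairs of the 34 genes. The median r was 0.537 over 101 pairs within a role and 0.302 over 460 pairs between roles. The lowest was -0.934, for Srebf1 and Me1.

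The remaining genes of this stretch did not follow 1 order. Hsd17b7, the ketoreductase of sterol demethylation, averaged 0.43 ± 0.03 in TAF-el4, 0.02 ± 0.08 in TAF-tib42 and -0.05 ± 0.08 in TAF-tib48, against 0.28 ± 0.13 in TAF-tib6 and 0.36 ± 0.02 in NSF (SD, n = 3 arrays each). It fell in TAF-tib42 and TAF-tib48 against both sensitive sources, and 3 of these 4 calls held with the slide run as a block. Its second probe was also lowest in these sources, at 0.12 in TAF-tib42 and 0.13 in TAF-tib48, against 0.39 in TAF-tib6 and 0.48 in NSF. Fdft1, the squalene synthase, stood apart in NSF at -0.15, -0.12 and -0.09, above all 12 other arrays, which lay between -0.58 and -0.31. The second probe of Fdft1 was highest in TAF-tib6. By their brightest probes Lss and Ebp, the lanosterol synthase and a sterol isomerase, were called in 0 of the 10 pairs. The second Lss probe, almost as bright, had -0.44 in TAF-el4, -0.26 in TAF-tib42 and -0.37 in TAF-tib48, against -0.41 in TAF-tib6 and -0.28 in NSF. Cyp51, the lanosterol demethylase, fell by 0.16 in TAF-tib48 against NSF (SE 0.0545, adjusted p = 0.0365), and that call was lost with the slide run as a block. The other Cyp51 probes, both dimmer, were also lowest in TAF-tib48, at -0.36 and -0.43, against -0.02 and -0.19 in NSF. On the latter probe TAF-tib42 was highest, at -0.16.

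The start regions of the 5 genes with the largest F among those with an entry in the RefSeq promoter table (GRCm38.p6) are shown because these genes carry the differences above. Each runs 5′ to 3′ on the strand of the gene, over 300 bases around the annotated start, 50 of them after it. Capitals mark matches on either strand to the CCAAT box (CCAAT or its complement ATTGG), to the E-box CACGTG and to the sterol regulatory element TCACNCCAC. Dhcr7 has 3 annotated starts, of which the first is shown.
Dhcr7, chr7:143822917-143823216, plus strand: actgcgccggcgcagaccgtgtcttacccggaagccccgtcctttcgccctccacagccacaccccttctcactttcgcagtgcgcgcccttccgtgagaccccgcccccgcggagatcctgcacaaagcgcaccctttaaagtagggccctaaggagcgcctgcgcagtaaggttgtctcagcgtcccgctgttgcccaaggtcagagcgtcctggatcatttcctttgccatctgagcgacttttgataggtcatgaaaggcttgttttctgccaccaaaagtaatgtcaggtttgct
Hmgcs1, chr13:119690101-119690400, plus strand: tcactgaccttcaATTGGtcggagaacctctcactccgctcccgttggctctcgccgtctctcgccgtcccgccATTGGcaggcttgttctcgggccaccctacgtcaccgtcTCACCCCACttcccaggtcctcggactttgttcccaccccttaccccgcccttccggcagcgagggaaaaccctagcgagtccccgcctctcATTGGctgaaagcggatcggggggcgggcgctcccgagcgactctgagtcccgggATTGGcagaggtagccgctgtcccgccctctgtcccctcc
Tm7sf2, chr19:6067801-6068100, minus strand: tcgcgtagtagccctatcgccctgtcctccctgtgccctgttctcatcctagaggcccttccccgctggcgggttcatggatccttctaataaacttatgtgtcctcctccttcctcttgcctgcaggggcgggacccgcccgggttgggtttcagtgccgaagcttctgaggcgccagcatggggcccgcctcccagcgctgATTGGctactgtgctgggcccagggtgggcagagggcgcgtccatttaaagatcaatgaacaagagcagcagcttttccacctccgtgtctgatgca
Idi1, chr13:8885356-8885655, plus strand: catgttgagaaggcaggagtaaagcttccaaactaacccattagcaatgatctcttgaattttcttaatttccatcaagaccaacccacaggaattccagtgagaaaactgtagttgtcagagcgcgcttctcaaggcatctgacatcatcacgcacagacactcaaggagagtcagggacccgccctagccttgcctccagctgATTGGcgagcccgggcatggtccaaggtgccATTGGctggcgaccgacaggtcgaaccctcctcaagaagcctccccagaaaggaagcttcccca
Sc5d, chr9:42264251-42264550, minus strand: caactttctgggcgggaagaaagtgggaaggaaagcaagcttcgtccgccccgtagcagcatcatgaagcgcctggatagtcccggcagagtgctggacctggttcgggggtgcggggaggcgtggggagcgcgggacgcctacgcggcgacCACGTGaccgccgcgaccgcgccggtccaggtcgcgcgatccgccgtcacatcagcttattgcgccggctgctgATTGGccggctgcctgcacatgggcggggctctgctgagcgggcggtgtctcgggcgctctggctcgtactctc
In these windows Hmgcs1 held 4 CCAAT boxes and a sterol regulatory element at position -137 from the start. Idi1 held 2 CCAAT boxes, Tm7sf2 held 1, and Sc5d held 1 beside an E-box at position -98. No motif was found in the first Dhcr7 window, while the third held 2 CCAAT boxes and the second an E-box. Promoters were listed for 27 of the 34 genes, counted by the first start of each. Of these, 20 held CCAAT, or 74.1%, against 37.41% of 32851 promoters, which unlike the 27 include every listed start of a gene. CACGTG was held by 4, or 14.8%, against 7.15%, and TCACNCCAC by 1, or 3.7%, against 1.24%. A match describes the letters of the window and is not a binding site.

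Of the 5 regulators, Srebf1 and Srebf2 had different patterns. Srebf1 encodes SREBP-1, the factor tied more to fatty acid genes. It measured -0.15, -0.18 and -0.32 in TAF-el4, 0.20 and 0.31 on the 2 measured TAF-tib42 arrays and -0.13, -0.25 and -0.20 in TAF-tib48, against -0.36, -0.19 and -0.11 in TAF-tib6 and -0.21, -0.16 and -0.27 in NSF. The TAF-tib42 arrays lay above the other 12, which overlapped; the spot of TAF-tib42 replicate 1 carried an outlier flag and was left out. Srebf1 rose by 0.47 in TAF-tib42 against NSF (SE 0.0714, adjusted p = 9e-05) and by 0.48 against TAF-tib6 (SE 0.0714, adjusted p = 7.31e-05). Both calls held with the slide run as a block but were lost with Cy5 intensity alone. Srebf2 encodes SREBP-2, the factor tied more to sterol genes. It measured -0.15, -0.19 and -0.01 in TAF-el4, -0.03, -0.06 and -0.01 in TAF-tib42 and -0.33, -0.35 and -0.30 in TAF-tib48, against 0.09, 0.03 and 0.04 in TAF-tib6 and 0.00, 0.04 and 0.05 in NSF. Every resistant array lay below every sensitive one, and TAF-tib48 lay below all. It fell by 0.36 in TAF-tib48 against NSF (SE 0.045, adjusted p = 7.7e-06) and by 0.38 against TAF-tib6 (SE 0.045, adjusted p = 4.5e-06). TAF-tib42 was called against neither sensitive source. TAF-el4 was called lower against both, but both calls were lost with Cy5 intensity alone, with averaged probes, or without TAF-el4 replicate 1 or 2. The second Srebf2 probe, dimmer, had source means between -0.00 and 0.04.

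Scap, the sterol-sensing escort of the SREBPs, had source means of -0.35 in TAF-el4, -0.67 in TAF-tib42 and -0.50 in TAF-tib48, against -0.38 in TAF-tib6 and -0.18 in NSF. It fell by 0.49 in TAF-tib42 against NSF (SE 0.0475, adjusted p = 3.15e-07). By its brighter probe, Insig1 was near the reference RNA in all sources, with means between -0.12 in TAF-tib6 and 0.11 in TAF-tib42. It rose by 0.23 in TAF-tib42 against TAF-tib6 (SE 0.0539, adjusted p = 0.00418). The Cy5 intensity of this probe was 85 to 156. The second Insig1 probe, dimmer, lay below the reference RNA in all sources, with means between -0.51 in TAF-tib6 and -0.11 in TAF-tib42. Insig2 had means between -0.69 and -0.49. It fell in TAF-el4 and TAF-tib42 against NSF, by 0.18 and 0.21, and in TAF-tib42 against TAF-tib6, by 0.16. Leaving out any 1 array of TAF-el4, or NSF replicate 1 or 2, ended the first of these calls, and the slide block ended the other two. Stard4, a carrier of cholesterol between membranes, had -1.23, -0.95 and -1.13 in TAF-tib48, below the 12 arrays of the other sources, which lay between -0.74 and -0.46. It fell by 0.58 in TAF-tib48 against NSF (SE 0.0731, adjusted p = 7.31e-06) and by 0.39 against TAF-tib6 (SE 0.0731, adjusted p = 0.00063). The second call was lost when its 3 probes were averaged. Acat2, which condenses acetyl-CoA, was called in 0 of the 10 pairs.

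Of the 5 genes for acetyl-CoA, NADPH and fatty acid synthesis, Acly changed most. Acly splits citrate into acetyl-CoA in the cytosol. It measured 0.10, 0.03 and 0.16 in TAF-el4, -0.10, -0.24 and -0.20 in TAF-tib42 and -0.15, -0.13 and -0.05 in TAF-tib48, against 0.23, 0.15 and 0.11 in TAF-tib6 and 0.27, 0.26 and 0.28 in NSF. The TAF-tib42 and TAF-tib48 arrays lay below all others, and TAF-el4 overlapped with TAF-tib6. Acly fell by 0.45 in TAF-tib42 and by 0.38 in TAF-tib48 against NSF (SE 0.048 each, adjusted p = 1.14e-06 and 8.39e-06). Me1, the malic enzyme that yields NADPH, had its lowest mean in TAF-tib42 at -0.39, with -0.02 in TAF-el4 and -0.16 in TAF-tib48, against -0.13 in TAF-tib6 and -0.04 in NSF. It fell by 0.35 in TAF-tib42 against NSF (SE 0.054, adjusted p = 8.09e-05) and by 0.26 against TAF-tib6, the second of which was lost with the slide run as a block. Fasn, the fatty acid synthase, averaged -0.25 in TAF-el4, -0.39 in TAF-tib42 and -0.55 in TAF-tib48, against -0.52 in TAF-tib6 and -0.34 in NSF. It rose by 0.27 in TAF-el4 against TAF-tib6 and fell by 0.21 in TAF-tib48 against NSF, and neither call held with the slide run as a block (adjusted p = 0.211 and 0.292). Acss2, which activates acetate, fell by 0.24 in TAF-el4 and by 0.19 in TAF-tib48 against TAF-tib6, again without a call under that block. Both calls were also lost when its probes were averaged. The second Acss2 probe, dimmer, had -0.09 in TAF-el4, -0.10 in TAF-tib48 and -0.09 in TAF-tib6. The TAF-tib48 call was lost too within slide run 3, and without TAF-tib48 replicate 1 or 2 or TAF-tib6 replicate 1. Acaca, the acetyl-CoA carboxylase, was called in 0 of the 10 pairs, with source means between 0.10 and 0.20.

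Of the 5 genes for desaturation and elongation, 4 rose and 1 fell in TAF-tib42 against TAF-tib6, and 3 rose and 1 fell against NSF. In TAF-el4, 0 rose and 1 fell against TAF-tib6 and 3 fell against NSF, and in TAF-tib48, 2 rose and 2 fell against TAF-tib6 and 1 rose and 4 fell against NSF. Under the slide block, the genes called in either direction were 2 in TAF-tib42, 1 in TAF-el4 and 4 in TAF-tib48 against TAF-tib6, and 2, 3 and 0 against NSF. Without the block, 24.9%, 20.6% and 24.6% of all genes were called in these sources against TAF-tib6. Against NSF the shares were 23.9%, 17.3% and 26.1%. Scd2 and Scd1 insert the first double bond into saturated fatty acids. Scd2 had log2 ratios of -0.90, -0.85 and -0.91 in TAF-el4, -0.11, -0.01 and 0.03 in TAF-tib42 and -0.72, -0.90 and -0.82 in TAF-tib48, against -0.25, -0.19 and -0.32 in TAF-tib6 and -0.52, -0.48 and -0.63 in NSF. The TAF-el4 and TAF-tib48 arrays lay below both sensitive sources and the TAF-tib42 arrays above them. Scd2 fell by 0.63 in TAF-el4 against TAF-tib6 (SE 0.0548, adjusted p = 1.36e-07) and by 0.56 in TAF-tib48 against TAF-tib6 (SE 0.0548, adjusted p = 3.97e-07). It rose by 0.51 in TAF-tib42 against NSF (SE 0.0548, adjusted p = 1.09e-06), and these 3 calls held with the slide run as a block. It also rose by 0.22 in TAF-tib42 against TAF-tib6 (0.08 with that block, adjusted p = 0.691).

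Scd1 had log2 ratios of -0.37, -0.50 and -0.42 in TAF-el4, 0.17, 0.18 and 0.11 in TAF-tib42 and -0.35, -0.31 and -0.20 in TAF-tib48, against -0.69, -0.47 and -0.43 in TAF-tib6 and 0.01, -0.19 and -0.04 in NSF. TAF-tib42 lay above all other arrays, and TAF-el4 overlapped with TAF-tib6. Scd1 rose by 0.68 in TAF-tib42 against TAF-tib6 (SE 0.0652, adjusted p = 2.68e-07), and by 0.78 with the slide run as a block. It fell by 0.36 in TAF-el4 against NSF (SE 0.0652, adjusted p = 0.00054). Its rise of 0.23 in TAF-tib42 against NSF was lost with the slide block (adjusted p = 0.347), and likewise with the authors' table, the scanner's ratio or median centring, and without TAF-tib42 replicate 2 or NSF replicate 2.

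Fads2 and Fads1 add double bonds to polyunsaturated fatty acids. Fads2 had 0.28, 0.32 and 0.26 in TAF-el4, 0.82, 0.76 and 0.76 in TAF-tib42 and 0.59, 0.63 and 0.49 in TAF-tib48, against 0.19, 0.18 and 0.22 in TAF-tib6 and 0.29, 0.30 and 0.38 in NSF. TAF-tib42 and TAF-tib48 lay above both sensitive sources, and TAF-el4 overlapped with NSF. Fads2 rose by 0.58 in TAF-tib42 and by 0.37 in TAF-tib48 against TAF-tib6 (SE 0.0438 each, adjusted p = 1.05e-08 and 3.68e-06), and by 0.46 in TAF-tib42 and 0.24 in TAF-tib48 against NSF. The last of these gave, with the slide run as a block, 0.30 (adjusted p = 0.0697). Fads1 had source means of -0.58 in TAF-el4, -0.04 in TAF-tib42 and -0.39 in TAF-tib48, against -0.45 in TAF-tib6 and -0.15 in NSF. It fell by 0.43 in TAF-el4 against NSF (SE 0.062, adjusted p = 4.64e-05) and rose by 0.40 in TAF-tib42 against TAF-tib6 (0.33 with the block, adjusted p = 0.0789). Elovl6, which lengthens palmitate, was lowest in TAF-tib48 at -0.84 and highest in NSF at -0.52, and its fall of 0.32 there gave adjusted p = 0.0528 with the block.

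**Figure D5:**
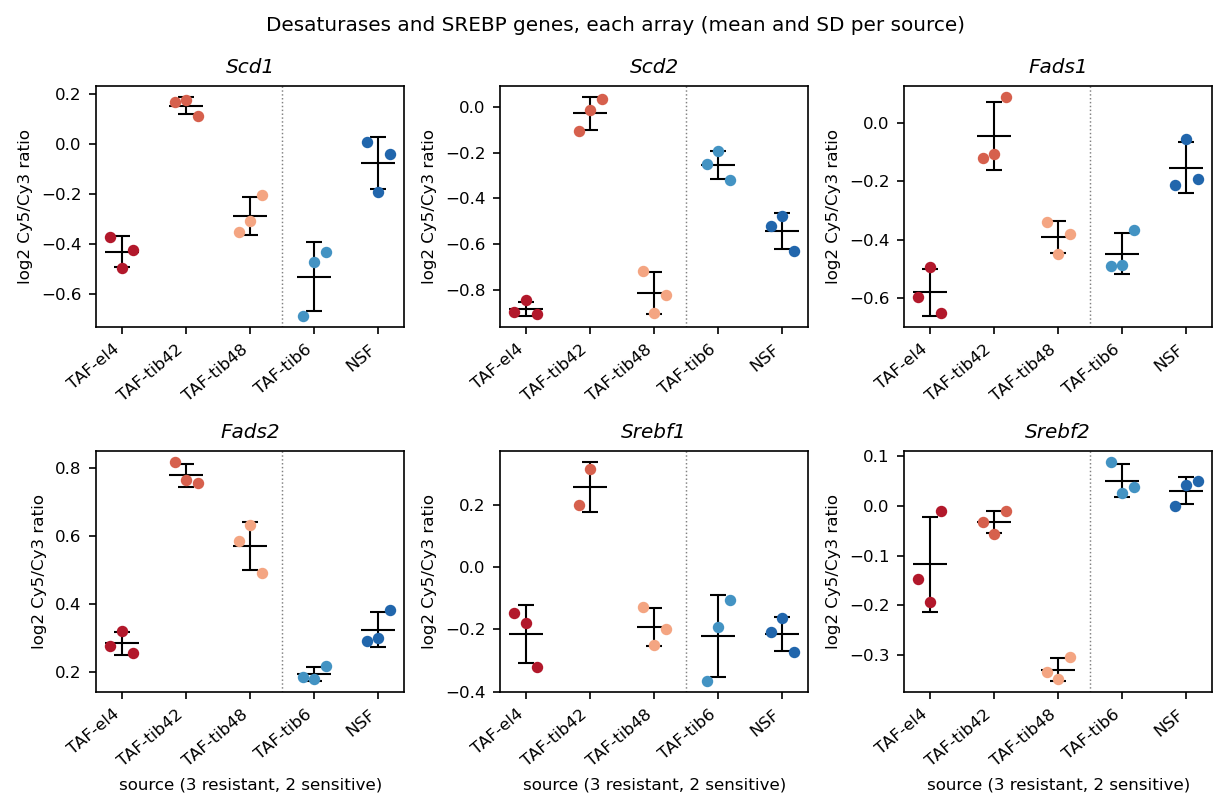
Log2 Cy5/Cy3 ratio of 4 desaturase genes and of Srebf1 and Srebf2 on each array (points), with the mean and SD of each source (bars, n = 3 arrays, 2 for Srebf1 in TAF-tib42). TAF-tib42 is highest for Scd1, Scd2, Fads1, Fads2 and Srebf1, and TAF-tib48 is lowest for Srebf2.

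Other genes of these pathways were taken from lists. Of 16 further genes of sterol synthesis, uptake and traffic, 11 were called by the F test, against 43% of all genes. In TAF-el4 against NSF 2 rose and 3 fell, in TAF-tib42 against NSF 1 rose and 7 fell, and in TAF-tib48 against NSF 0 rose and 6 fell. Of the 16, these are 31.2%, 50% and 37.5%, against 17.3%, 23.9% and 26.1% of all genes, and under the slide block 5, 3 and 1 genes were called. Against TAF-tib6, 4 rose and 2 fell in TAF-el4, 3 rose and 5 fell in TAF-tib42, and 1 rose and 2 fell in TAF-tib48. These are 37.5%, 50% and 18.8%, against 20.6%, 24.9% and 24.6% of all genes, and 1, 3 and 3 genes were called under the slide block. Lbr, the lamin B receptor, carries the same sterol reductase activity as Tm7sf2. Lbr was higher in TAF-el4, TAF-tib42 and TAF-tib48 than in TAF-tib6 by 0.43, 0.38 and 0.30, called also with the slide run as a block, and it was not called against NSF in these sources. Soat1, which esterifies cholesterol, rose by 0.46 in TAF-el4 against NSF (SE 0.0466, adjusted p = 8.64e-07) and fell by 0.51 in TAF-tib42 (SE 0.0466, adjusted p = 1.41e-07). Npc2, which carries cholesterol out of lysosomes, fell in all 6 pairs of a resistant and a sensitive source, by 0.20 to 0.62, and in 3 of them with the slide run as a block.

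Of the 10 genes of the oxysterol receptor LXR and of oxysterol handling, all 10 were called by the F test, against 43% of all genes, and Cyp7b1, Ch25h and Abca1 had wider ranges of source means than any of the 34 genes. Cyp7b1 hydroxylates oxysterols. Its source means were 1.16 in TAF-el4, 0.67 in TAF-tib42 and 0.37 in TAF-tib48, against 3.35 in TAF-tib6 and 2.69 in NSF, and it fell in all 6 pairs with and without the slide run as a block. Abca1, which exports cholesterol, had -0.04 in TAF-el4, 0.40 in TAF-tib42 and -0.24 in TAF-tib48, against 0.98 in TAF-tib6 and 0.98 in NSF. It fell in all 6 pairs, and in 5 with the block, where TAF-tib42 against TAF-tib6 gave -0.23 (adjusted p = 0.404). Ch25h, the cholesterol hydroxylase, was highest in NSF at 2.24, against -0.11 to 0.67 in the other sources. It fell in all 4 of them against NSF, also with the block. Of the 10 genes, 60%, 50% and 70% were called in TAF-el4, TAF-tib42 and TAF-tib48 against NSF, against 17.3%, 23.9% and 26.1% of all genes. Lpcat3 rose by 0.27 in TAF-el4, Abcg1 by 0.26 in both TAF-tib42 and TAF-tib48, and Nr1h2 by 0.23 in TAF-tib48. The other calls in these pairs were falls. Under the slide block 6, 4 and 3 of the 10 genes were called. Of 28 further genes of fatty acid and lipid synthesis, 4 rose and 2 fell in TAF-el4, 6 rose and 3 fell in TAF-tib42, and 3 rose and 4 fell in TAF-tib48 against NSF. These are 21.4%, 32.1% and 25% of the 28, against 17.3%, 23.9% and 26.1% of all genes, so the shares in TAF-el4 and TAF-tib48 were near the background. Under the slide block 6, 0 and 1 of them were called. Acsl4, which activates long polyunsaturated fatty acids, fell by 0.68 in TAF-tib48 against NSF (SE 0.0425, adjusted p = 8.46e-10) and rose by 0.23 in TAF-el4. Of 19 genes of fatty acid oxidation, 5 fell in TAF-el4, 1 rose and 6 fell in TAF-tib42, and 2 rose and 2 fell in TAF-tib48 against NSF. These are 26.3%, 36.8% and 21.1% of the 19, against the same shares of all genes, and 4, 1 and 0 were called under the slide block.

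Other differences moved along with these genes. Of 15 cell cycle genes measured, 15 rose in TAF-el4, 6 in TAF-tib42 and 7 in TAF-tib48 against NSF, and 15, 12 and 8 rose against TAF-tib6. None fell in these pairs. Of all genes, 8.79%, 10.8% and 11.7% were called higher against NSF, and 11.4%, 11.8% and 11.5% against TAF-tib6. Under the slide block, 15, 1 and 0 of the 15 cell cycle genes were called against NSF and 7, 1 and 5 against TAF-tib6. The summed Cy5 intensity of 12 adipocyte markers, after background correction as for all marker intensities here, was 16360 to 16916 on the TAF-tib6 arrays and between 4196 and 9022 on the 12 others. Lpl and Fabp4 led that sum, and the adipocyte genes Adipoq and Plin1 lay at 33 to 99 and 89 to 173 on all arrays, where the median probe had 109 to 225 after the same correction. The summed intensity of 9 endothelial markers was 1898 to 3314 in TAF-tib48 and 882 to 1639 on the other arrays. Emcn rose by 1.79 and Cdh5 by 0.48 in TAF-tib48 against NSF, Esam and Tek rose by less, and Pecam1, Kdr, Tie1, Vwf and Cldn5 were not called. For 9 macrophage markers the sums were 1632 to 2882 and overlapped among sources. Aif1 fell by 0.745, 0.29 and 0.71 in TAF-el4, TAF-tib42 and TAF-tib48 against NSF. Lyz2 rose by 0.60 in TAF-el4 and fell by 0.32 in TAF-tib42. Cd14 fell by 0.20 in TAF-el4 and rose by 0.16 in TAF-tib42, where Csf1r rose by 0.15. The other macrophage markers were not called in these pairs. These calls are 33.3%, 44.4% and 11.1% of the 9, against 17.3%, 23.9% and 26.1% of all genes. For 9 epithelial markers the sums were 3566 to 6013 in TAF-el4, 4534 to 5333 in TAF-tib42 and 3852 to 7346 in TAF-tib48. They were 3711 to 4006 in TAF-tib6 and 3931 to 5727 in NSF, with no overlap between TAF-tib42 and TAF-tib6. The keratin gene Krt19 rose by 0.62 in TAF-el4, 0.75 in TAF-tib42 and 0.35 in TAF-tib48 against NSF. Krt8 rose by 0.37 in TAF-tib42 and 0.36 in TAF-tib48, and Krt14 rose by 0.215 in TAF-tib48. Krt18 fell by 0.32 in TAF-el4, and the other epithelial markers were not called in these pairs. Of the 9, 22.2%, 22.2% and 33.3% were called, against 17.3%, 23.9% and 26.1% of all genes. For 10 lymphocyte markers without Thy1, which fibroblasts express, they were 2859 to 6351. Ptprc, the leukocyte common antigen, had 37 to 138, whereas the lymphocyte marker Cd3e had 1464 to 3540. In TAF-tib48 against NSF, Lck, Cd5, Cd3g and Cd79a rose by 0.31, 0.29, 0.25 and 0.18. The other lymphocyte markers apart from Thy1 were not called there. With Thy1, 45.5% of 11 lymphocyte markers were called in that pair, against 26.1% of all genes. Of 13 fibroblast markers, 53.8%, 30.8% and 53.8% were called in TAF-el4, TAF-tib42 and TAF-tib48 against NSF, against 17.3%, 23.9% and 26.1% of all genes. Log2 differences in these pairs were -3.028, -2.814 and -2.756 for Dcn and -1.038, -0.789 and -1.417 for Pdgfra. S100a4 rose in TAF-el4 and TAF-tib48 and Vim in TAF-tib48, and the other fibroblast marker calls were falls. The part of cell cycle, adipocyte, endothelial, macrophage, epithelial, lymphocyte and fibroblast marker differences in the results on sterol and fatty acid genes was not tested.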

How the data were processed

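Fibroblast RNA from 5 sources was hybridised to 15 Agilent 2-colour mouse arrays. Per the file headers, the deposited scanner files give an intensity per spot and dye and the scanner's background-subtracted log10 ratio, made with Agilent Feature Extraction 8.5.1.1 per the submitters' processing notes, while a protocol label names another version. The table deposited by the authors holds log2 ratios, which followed the scanner's ratio with a slope of 1 and whose column medians were 0.0337 to 0.0511.

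Here the intensities were background-corrected (normexp, offset 50) and loess-normalised with limma 3.58.1 in R 4.3.3. Control and outlier spots were dropped, and spots of a probe were averaged. The probe with the highest mean Cy5 intensity stood for each of 33628 genes. Of these, 31325 were tested because Cy5 was well above background on all 3 arrays of at least 1 source. RefSeq names came from GRCm38.p6. Pairs of sources and the F test over 5 sources used 1 limma fit of 15 arrays. The resistant against sensitive comparison was a limma fit of the 5 source means. Tests were two-sided, with Benjamini-Hochberg adjustment across all genes tested and calls under 0.05. Replicate numbers were not used as a block, since arrays of the same number did not deviate together (correlations of -0.193 to 0.169). The 34 genes and the lists were chosen with earlier results of these data known. All 34 genes are described; of the other lists, the called genes with the largest differences were named, and Lbr was chosen after its values were seen. The alternatives were other ratios, normalisations, filters, probes, blocks and left-out arrays. The steps were tested on simulated data.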

Additional observations from a re-analysis of the deposited data

How the results depend on the processing

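No call of the 34 genes turned round under any alternative tried. Of 175 calls in pairs of sources, the number lost was 63 with the slide run as a block, 47 with Cy5 intensity alone, 18 with the probes of a gene averaged, 17 with median centring, 14 with the scanner's ratio, 14 with the authors' table, 5 with scaled ratios, 1 without background subtraction, 1 without the filter and 1 with the replicate block. Counts moved by more than 1.5 times as follows. With the slide run as a block, 13 of 34 genes were called in TAF-tib42 and 15 in TAF-tib48 against NSF, 2 in TAF-el4 and 9 in TAF-tib42 against TAF-tib6, and 0 in TAF-tib6 against NSF. With Cy5 alone, 13 were called in TAF-el4 and 6 in TAF-tib6 against NSF, and with median centring 20 in TAF-tib6 against NSF. Within slide run 2, chosen after seeing the data, 11 were called in TAF-el4 against TAF-tib42 and 9 against TAF-tib48; these arms of 1 array are assumed to vary like the 3 TAF-tib42 arrays, which alone give the spread. Leaving out 1 array at a time gave 16 to 20 calls for TAF-el4, 18 to 20 for TAF-tib42, 19 to 23 for TAF-tib48 and 9 to 14 for TAF-tib6 against NSF. It gave 10 to 14, 15 to 18 and 15 to 19 for the resistant sources against TAF-tib6, and 28 to 29 for the F test. Between resistant and sensitive sources 0 of the 34 genes were called under all alternatives, and 11 of all genes were called by limma without TAF-el4. Replicate numbers did not pair the arrays; with the replicate block, 18 genes were called in TAF-tib42 against TAF-tib6 and 12 in TAF-tib6 against NSF. Over all genes, the slide block gave 2432 calls in place of 7492 in TAF-tib42 and 2010 in place of 8174 in TAF-tib48 against NSF, and 414 in place of 3544 in TAF-tib6 against NSF. It gave 1683 in place of 6449 in TAF-el4 and 3026 in place of 7789 in TAF-tib42 against TAF-tib6. For pairs that share a slide run, it gave 4617 in place of 5426 in TAF-el4 against NSF and 6658 in place of 7719 in TAF-tib48 against TAF-tib6. It gave 4436 in place of 7226 in TAF-el4 against TAF-tib42, 2783 in place of 7441 in TAF-el4 against TAF-tib48 and 2556 in place of 4473 in TAF-tib42 against TAF-tib48. Cy5 intensity was lowest for Insig1, at 85 to 156, and highest for Scd2, at 5870 to 14003.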
